A study of Mus musculus with 6 samples.

Results

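Replication licensing prepares DNA to be copied, and 9 genes of this step were examined in MC3T3-E1 cells treated with metformin: Mcm2, Mcm3, Mcm4, Mcm5, Mcm6 and Mcm7, which encode the subunits of the replicative helicase, Cdc6 and Cdt1, which encode its loading factors, and Gmnn, which encodes the inhibitor geminin. They were chosen by gene name, 9 of the 54532 genes in the deposited table, after results of the same comparison were known. Their values are therefore given as a description, without a p-value. The MC3T3-E1 line consists of mouse cells committed to the osteoblast lineage, and metformin is a biguanide drug used to lower blood glucose. The control group of 3 samples was kept in osteogenic medium, which held β-glycerophosphate, ascorbic acid and dexamethasone, and the metformin group of 3 samples received the same medium with 0.2 mM metformin. Both groups were induced for 3 days, and the dose and time come from the study's methods. All samples came from 1 cell line, and no untreated, uninduced group was sequenced. Levels are taken as FPKM, the reads of a gene scaled by its length and by the size of the library. Read numbers were recovered from the deposited values. Summed over the genes in the table they were 18399861 to 22111790 per sample, and the 9 genes had 68 to 3433 reads each.

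Before a cell copies its DNA, the origin recognition complex marks the start sites on chromatin. Cdc6 and Cdt1 then help to place the ring of Mcm2 to Mcm7 around the DNA, and this loaded ring is the license for a single round of copying. Geminin binds Cdt1 in S and G2 phase and so blocks a second loading. Transcription of these genes is known to be driven by E2F factors as cells enter the cycle, and cells that leave the cycle to differentiate lose MCM proteins.

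Promoter windows of 250 bases before to 50 after a start site were available from RefSeq (GRCm38.p6) for 7 of the 9 genes, all but Mcm4 and Gmnn. The E2F motif was searched on both strands as TTTCCCGC, TTTCGCGC, TTTGCCGC and TTTGGCGC, and 6 of the 7 genes held at least 1 match, all but Mcm2. Of all 27025 genes with a window, 2.61% held one. A match is a string of letters and not a measured binding site. One match of each of the 6 genes is printed because these genes were all higher with metformin, with at most 11 bases on each side and with the motif in capitals. Positions are counted from the RefSeq start as base 1, with negative numbers before it.

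Mcm3: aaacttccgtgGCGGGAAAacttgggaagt
Mcm5: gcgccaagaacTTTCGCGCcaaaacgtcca
Mcm6: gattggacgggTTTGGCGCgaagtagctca
Mcm7: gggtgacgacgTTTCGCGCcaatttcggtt
Cdc6: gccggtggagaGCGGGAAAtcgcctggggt
Cdt1: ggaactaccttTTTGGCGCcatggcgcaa

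These stretches lie at chr1:20820275-20820304 (minus strand) for Mcm3, chr8:75109345-75109374 (plus strand) for Mcm5, chr1:128359734-128359763 (minus strand) for Mcm6, chr5:138171849-138171878 (minus strand) for Mcm7, chr11:98908002-98908031 (plus strand) for Cdc6 and chr8:122568036-122568064 (plus strand) for Cdt1. The motif began at base 20 in Mcm3, 17 in Mcm7 and 33 in Cdt1, after the start site. It began at base -153 in Mcm5, -47 in Mcm6 and -138 in Cdc6, before it. Mcm6 held 3 matches, and Mcm3, Mcm5 and Mcm7 held 2 each, and pairs of matches in Mcm5 and in Mcm6 overlapped. The windows of Cdc6 and Mcm7 lie inside the genes as the deposited table places them, and that of Mcm5 ends before its listed start. Mcm7 had a further window, which held no match. The CCAAT box, searched as CCAAT, was found in 5 of the 7 genes and in 41.1% of all genes, and the GC box, GGGCGG, in 5 of the 7 and in 38.2%. In the related lists described further on, the E2F letters were held by 8 of 22 replisome genes with a window, 2 of 8 origin recognition genes, 2 of 9 origin firing genes and 1 of 18 mitotic genes.

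Transcripts of all 6 helicase subunits were higher with metformin, between 2.35-fold for Mcm7 and 4.81-fold for Mcm5 by the ratio of group means. Summed over the 6 subunits, the level was 54.97, 50.3 and 46.4 FPKM in the controls and 169, 178 and 167 FPKM with metformin, a ratio of means of 3.39. The sums did not overlap between the groups.

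Mcm5 and Mcm3, neighbours in the ring, had the largest ratios among the subunits. Mcm5 (chromosome 8, 75109569 to 75128439) had 6.06, 6.53 and 5.92 FPKM in the controls and 30.4, 30.4 and 28.3 FPKM with metformin. Its log2 fold change, on the scale of log2(FPKM + 1) used for all fitted values, was 2.10 (standard error 0.08). The lowest metformin sample stood far above the highest control. Mcm3 (chromosome 1, 20802968 to 20820312) had 7.44, 6.87 and 6.14 FPKM in the controls and 30.4, 33.2 and 30.8 FPKM with metformin, a ratio of 4.62 and a log2 fold change of 2.06 (standard error 0.09).

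Mcm4, Mcm6 and Mcm7 can form a subcomplex with helicase activity of its own. Mcm4 (chromosome 16, 15623897 to 15637400) had 9.93, 7.78 and 6.71 FPKM in the controls and 29.3, 31.7 and 29.7 FPKM with metformin, with a log2 fold change of 1.79 (standard error 0.14). Mcm6 (chromosome 1, 128331590 to 128359664) had 12.0, 9.43 and 8.21 FPKM in the controls and 31.4, 33.8 and 32.2 FPKM with metformin, with a log2 fold change of 1.63 (standard error 0.14). In both genes control replicate 1 was the highest control, and the groups did not overlap. Mcm7 (chromosome 5, 138164583 to 138172422) was the steadiest in the controls, at 11.01, 10.87 and 10.97 FPKM, and had 25.5, 26.9 and 24.8 FPKM with metformin, with a log2 fold change of 1.16 (standard error 0.08). Mcm7 overlaps Cops6 by 64 bases and Ap4m1 by 421 bases, both on the opposite strand, and whether counting used strand is not given in the sources used here. Over the 6 samples Cops6 had 982 to 2478 reads and Ap4m1 237 to 330, where Mcm7 had 890 to 2591. Mcm7 also shares 97.7% identity over 2157 bases with the transcript of Gm5487, so reads could be split between them. The 3 microRNA genes in Mcm7 introns, Mir25, Mir93 and Mir106b, had at most 4 reads in a sample.

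Mcm2 (chromosome 6, 88883474 to 88898780), the subunit next to Mcm5 at the gate of the ring, had 8.50, 8.83 and 8.48 FPKM in the controls. With metformin it had 21.6, 22.1 and 21.1 FPKM, a ratio of 2.52 and a log2 fold change of 1.24 (standard error 0.07). Both groups were tight and lay far apart.

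**Figure D1:**
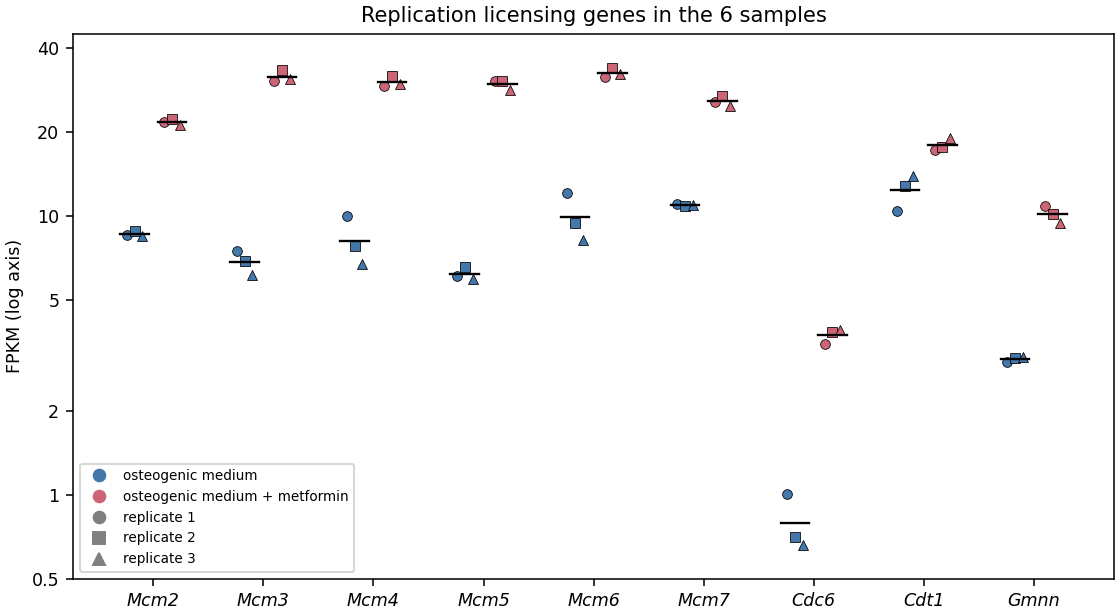
FPKM of the 9 licensing genes in each sample, on a log axis, with the control samples in blue, the metformin samples in red, replicate numbers as symbols and group means as black lines. All 3 metformin samples lie above all 3 controls for each gene, with the narrowest gap for Cdt1, whose highest control had 13.8 FPKM and lowest metformin sample 17.1 FPKM.

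The loading factors and their inhibitor did not change by like amounts. Cdc6 (chromosome 11, 98907801 to 98923940), an ATPase that recruits the helicase to the origin complex, was the least abundant of the 9, at 1.01, 0.702 and 0.662 FPKM in the controls and 3.47, 3.84 and 3.89 FPKM with metformin. The ratio of means was 4.72, while the log2 fold change was 1.41 (standard error 0.11), since adding 1 FPKM shrinks the change of a low gene. With a pseudocount of 0.1 it was 2.12. Its control values rest on 68 to 96 reads. Part of its transcript, 1260 bases, is 95.2% identical to the pseudogene Gm9430, which was listed at 0 in all samples.

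Cdt1 (chromosome 8, 122568015 to 122573554), which brings the helicase to the origin and is the target of geminin, had the smallest difference. It had 10.4, 12.8 and 13.8 FPKM in the controls and 17.1, 17.6 and 19.0 FPKM with metformin, a ratio of 1.45 and a log2 fold change of 0.51 (standard error 0.12). The samples did not overlap, but the gap between the groups was about as wide as the spread among the controls. Cdt1 passed the threshold used across all genes with 6 samples, and no longer did without control replicate 2 (log2 fold change 0.54), metformin replicate 1 (0.54), metformin replicate 2 (0.52) or metformin replicate 3 (0.47). Without control replicate 1 it passed, at 0.40. It lies within the span of the read-through gene Gm20388, which had 0 reads.

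Geminin differed more between the groups than its target. Gmnn (chromosome 13, 24751845 to 24761923) had 2.99, 3.09 and 3.13 FPKM in the controls and 10.8, 10.1 and 9.39 FPKM with metformin, a ratio of 3.30 and a log2 fold change of 1.45 (standard error 0.08). Its control values rest on 80 to 95 reads. The ratio of Cdt1 to Gmnn was 3.46, 4.15 and 4.43 in the controls and 1.59, 1.74 and 2.02 with metformin, so it was lower in all 3 metformin samples. Relative to the summed helicase subunits, Gmnn stayed at 5.44% to 6.73% in the controls and 5.63% to 6.4% with metformin, ranges that overlap. Cdt1 went from 18.8% to 29.8% of that sum in the controls to 9.91% to 11.4% with metformin, and Cdc6 from 1.40% to 1.83% to 2.06% to 2.33%.

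Each of the 9 genes was called higher with metformin, where called means an adjusted p-value under 0.05 by limma with Benjamini-Hochberg adjustment over the 12681 genes with a mean of at least 0.5 FPKM. Across those genes 13.2% were called higher, 9.28% lower and 22.5% in either direction, and 0 of the 9 were called lower. All 9 also had every metformin sample above every control, as did 23.6% of all tested genes, while 20.5% had every metformin sample below and 44.1% had no overlap in either direction. Since the comparison itself led to the choice of these genes, nothing is read from either count. Their median log2 fold change was 1.45, where the median of all tested genes was 0.0053. By the size of their log2 fold change they ranked between 68 for Mcm5 and 372 for Mcm7 from the top of the 12681 genes, apart from Cdt1 at 1418.

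One control sample stood apart. Across the tested genes, the difference of control replicate 1 from the mean of the other controls fell with GC content, from a median of 0.42 on the log2 scale for genes up to 40% GC to -0.43 above 55%. The Spearman correlation of this difference with GC content was -0.70 over the 9 licensing genes and -0.67 over all tested genes. Mcm4 (45.5% GC) was 0.41 higher and Mcm6 (47.3%) 0.41 higher in that sample, while Cdt1 (57.8%) was 0.33 lower, at -0.33. Mcm3 (52.6%) was 0.17 higher and Mcm7 (53.4%) 0.01 higher, where the median between 50% and 55% GC was -0.09. After the GC correction the differences ran from -0.05 for Gmnn to 0.30 for Mcm3, with Mcm6 also at 0.30. Leaving that sample out gave log2 fold changes from 0.40 for Cdt1 to 2.11 for Mcm3, with 9 of 9 called. With each library corrected for GC content, they ran from 0.44 to 2.06, and again 9 of 9 were called. Of the 12681 tested genes, 2969 were called higher without that sample and 2062 with the GC correction, where the main fit called 1670. Nothing is read from either count of the 9 genes. Reads of mitochondrial genes, a common sign of RNA or cell quality, made up 6.36% to 10.01% of the control libraries and 2.72% to 3.16% of the metformin libraries, and their part in the values was not tested.

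**Figure D2:**
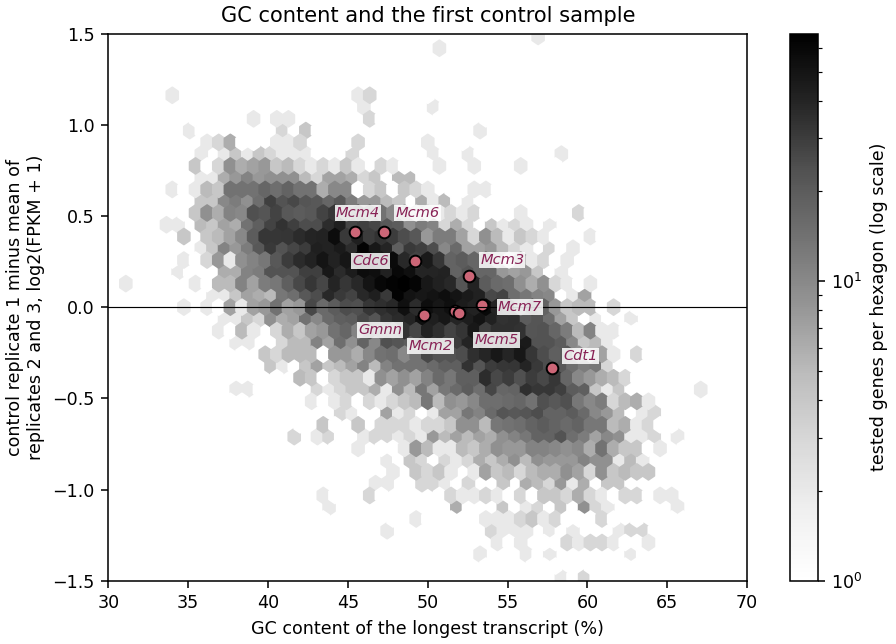
Difference of control replicate 1 from the mean of control replicates 2 and 3, in log2(FPKM + 1), against the GC content of the longest transcript. Grey hexagons show the tested genes inside the axes, and red points the 9 licensing genes. Cdt1, with the highest GC content of the 9, lies lowest at -0.33, and Mcm4, with the lowest, lies at 0.41.

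The subunits of the ring are needed in equal numbers as proteins, but their transcripts were not equal. In the controls the order by mean FPKM was Cdt1, Mcm7, Mcm6, Mcm2, Mcm4, Mcm3, Mcm5, Gmnn and Cdc6. Neighbours in this order from Cdt1 down to Mcm5 overlapped in their samples, and Mcm5, Gmnn and Cdc6 were separated. With metformin the order was Mcm6, Mcm3, Mcm4, Mcm5, Mcm7, Mcm2, Cdt1, Gmnn and Cdc6. Neighbours among the first 4 overlapped, and each later step was free of overlap. Cdt1 thus went from first to seventh.

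Within the helicase, Mcm3 went from 13.2% to 13.7% of the summed subunit FPKM in the controls to 18.0% to 18.7% with metformin, and Mcm5 from 11.03% to 12.98% to 16.9% to 18.0%. Mcm7 made up 20.03% to 23.6% in the controls and 14.8% to 15.1% with metformin, and Mcm2 15.5% to 18.3% and 12.4% to 12.8%. The shares of these 4 subunits did not overlap between the groups. Mcm6 had 17.7% to 21.9% and 18.6% to 19.3%, and Mcm4 14.4% to 18.1% and 17.4% to 17.8%, which overlap. For Mcm4 the overlap rests on control replicate 1, at 18.1%, while control replicates 2 and 3 had 15.5% and 14.4%. The shares were not corrected for GC content. The highest subunit was 1.66 to 1.98 times the lowest in the control samples and 1.45 to 1.53 times with metformin.

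These comparisons between genes depend on the gene length. The deposited table lists 6956 bases for Mcm2, where its longest coding transcript in GENCODE M21 has 3371. Per length of that transcript, an alternative chosen after seeing the data, Mcm2 was the highest subunit in both groups, at 17.8 FPKM in the controls and 44.6 FPKM with metformin. The highest subunit mean was then 2.44 times the lowest in the controls and 1.48 times with metformin, in place of 1.77 and 1.5. Cdt1, at 17.7 FPKM in the controls, then lay just below Mcm2. The order of genes therefore holds for the listed lengths only, while the fold changes do not depend on them apart from the added pseudocount.

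**Figure D3:**
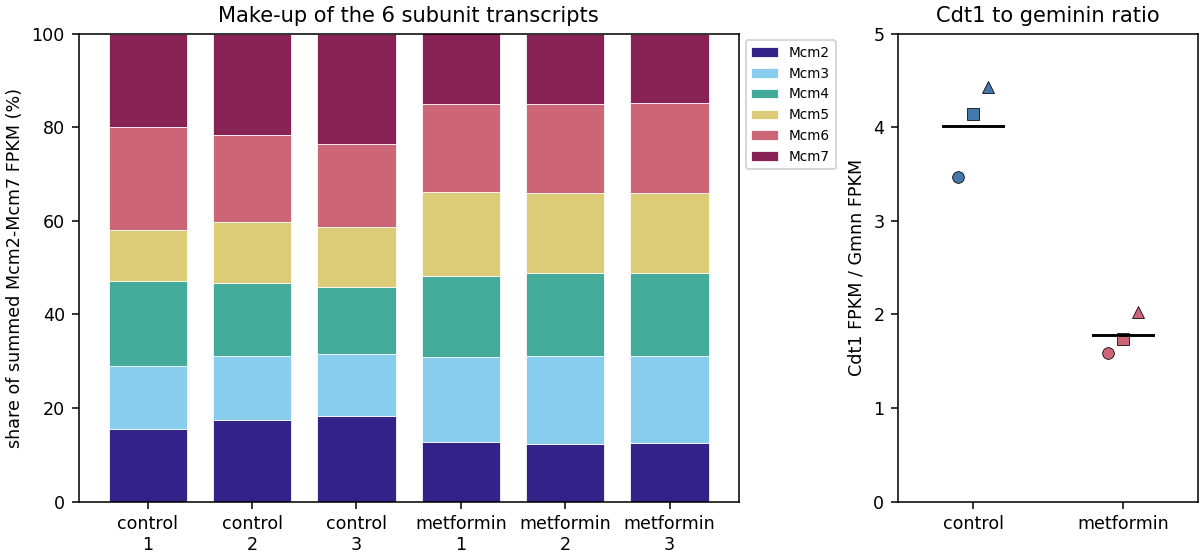
Left, the share of each subunit in the summed FPKM of Mcm2 to Mcm7 in each sample, in percent. Right, the ratio of Cdt1 to Gmnn FPKM per sample, with replicates 1, 2 and 3 as circles, squares and triangles and group means as black lines. The shares of Mcm7 and Mcm2 are smaller with metformin and those of Mcm3 and Mcm5 larger, and the ratio is 3.46 to 4.43 in the controls and 1.59 to 2.02 with metformin.

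Origin recognition, the step before loading, was mostly not called. Of 8 tested genes, 2 were called higher and 1 lower, with a median log2 fold change of 0.069. Of all tested genes 13.2% were called higher and 9.28% lower, so nothing is read from these small counts. Orc1 and Orc6 were the higher ones. Orc1, the subunit whose protein level changes with the cell cycle, had 0.537 ± 0.10 FPKM (SD, n = 3) in the controls and 1.94 ± 0.31 with metformin (log2 fold change 0.93, adjusted p = 0.00229 by limma). Orc6 went from 7.04 ± 1.4 to 14.0 ± 0.51 FPKM (0.91, adjusted p = 0.00403). Orc2, Orc3 and Orc4, which belong to the core of the complex, had log2 fold changes of 0.28, -0.09 and -0.43 and were not called. Orc5 was lower, at 3.20 ± 0.23 and 2.2 ± 0.31 FPKM (-0.39, adjusted p = 0.0357), a call that was kept without control replicate 1, lost when any other single sample was left out, and kept in neither the GC-corrected fit nor the fit with the replicate block. Whether the 2 sets of subunits differ from each other was not tested.

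The factors that turn the loaded ring into a running helicase were higher throughout. All 14 tested genes of origin firing were called higher, with log2 fold changes from 0.38 to 1.64 and a median of 1.21. All 14 had every metformin sample above the controls. Of all tested genes 13.2% were called higher and 23.6% had every metformin sample above. The list was chosen with earlier results of these data known, so nothing is read from these counts. Ticrr had a control mean of 0.496 FPKM, under the filter of 0.5 FPKM, and was tested through its metformin values. Mcm10, which helps to activate the helicase, had 0.518 ± 0.025 FPKM in the controls and 3.72 ± 0.15 with metformin, a ratio of 7.18 and a log2 fold change of 1.64 (adjusted p = 8.18e-05 by limma). Dbf4, the activating subunit of the kinase that phosphorylates the ring, went from 1.42 ± 0.40 to 6.19 ± 0.52 FPKM (1.58, adjusted p = 0.000419). Gins2, a subunit of the GINS complex that joins the ring in the active helicase, went from 1.29 ± 0.22 to 4.81 ± 0.33 FPKM (1.35, adjusted p = 0.000304). The smallest change was that of Gins4, also of the GINS complex, at 14.5 ± 0.59 and 19.2 ± 1.8 FPKM (0.38, adjusted p = 0.0310). Its call was lost with the replicate block and in 5 of 6 leave-one-out fits, all but the one without control replicate 1.

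Genes that control the removal of licensing factors were called in both directions. Of 10 tested, 3 were called higher and 2 lower, where 13.2% of all tested genes were called higher and 9.28% lower. With so few genes, nothing is read from these counts. Fbxo5, an inhibitor of the anaphase-promoting complex that protects geminin from breakdown, went from 4.24 ± 0.71 to 19.3 ± 1.6 FPKM (log2 fold change 1.96, adjusted p = 0.000165 by limma). Dtl, the substrate receptor that directs a CUL4 ligase to Cdt1 during S phase, went from 0.826 ± 0.20 to 3.63 ± 0.16 FPKM (1.35, adjusted p = 0.000343). Skp2, a substrate receptor of a CUL1 ligase that also acts on Cdt1, went from 1.90 ± 0.19 to 3.17 ± 0.14 FPKM (0.53, adjusted p = 0.00719). Of the 3 cullin scaffolds in the list, Cul4a and Cul1 were lower, with log2 fold changes of -0.36 (adjusted p = 0.0146) and -0.34 (adjusted p = 0.0418), while Cul4b had 10.6 ± 2.7 and 10.7 ± 0.042 FPKM (0.04) and was not called. The calls of Cul4a and Cul1 were lost with the replicate block, which left 3 called genes. With the GC correction 8 were called, and without control replicate 1 also 8.

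Relatives of the helicase and its binding partners were mixed. Of 9 genes, 6 were tested and 4 were called higher, where 13.2% of all tested genes were called higher. With so few genes, nothing is read from this count, and 2 to 4 were called over the 14 alternative fits. Mms22l and Tonsl, whose proteins form a complex in the repair of stalled forks, went from 1.27 ± 0.21 to 4.67 ± 0.42 FPKM (log2 fold change 1.33, adjusted p = 0.000359 by limma) and from 0.981 ± 0.17 to 3.60 ± 0.29 FPKM (1.22, adjusted p = 0.000452). Mcm8, a paralog that acts in recombination repair with Mcm9, went from 1.25 ± 0.59 to 3.21 ± 0.15 FPKM (0.94, adjusted p = 0.0124), a call kept in 3 of 6 leave-one-out fits. Mcm9 had 1.08 ± 0.29 and 1.38 ± 0.091 FPKM (0.20) and was not called. The geminin relatives Gmnc and Mcidas and the germ-line relative Mcmdc2 had at most 5 reads in a sample.

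**Figure D4:**
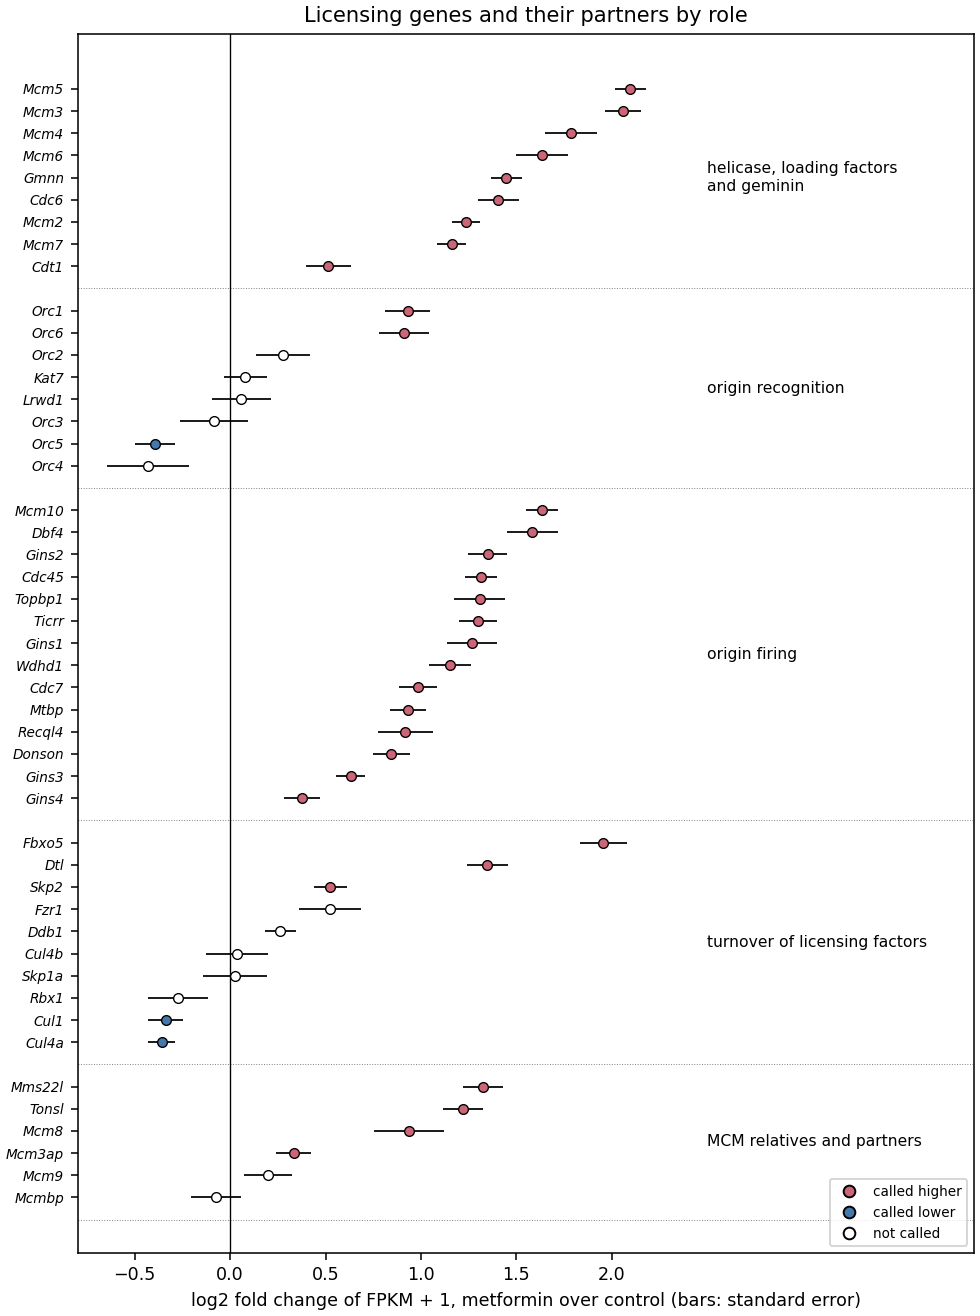
Log2 fold changes of log2(FPKM + 1), metformin over control, for the 9 licensing genes and the tested genes of 4 related lists, with standard errors as bars. Red marks genes called higher, blue called lower and white not called. All 14 origin firing genes lie to the right of 0, while 6 of the 8 origin recognition genes lie between -0.43 and 0.28.

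Most genes of the replisome and mitotic lists were called higher as well. Of 26 genes of the replisome, the machinery that copies DNA at the fork, 23 were called higher and 0 lower, with a median log2 fold change of 1.12. The ligase Lig1 (1.97), the checkpoint mediator Clspn (1.94) and the polymerase subunit Pole (1.60) had the largest changes there. Fen1, also called higher, had a control mean of 0.239 FPKM, under the filter of 0.5 FPKM. It was tested through its metformin values, with a mean of 0.942 FPKM. All 20 genes that peak in G2 and mitosis were called higher, with a median of 2.28 and changes from 1.73 to 2.61, led by Top2a, Cdc20 and Aurkb. Among all tested genes, 13.2% were called higher and 9.28% lower. Both lists were chosen with earlier results of these data known, so nothing is read from their counts. The largest change among the licensing genes, that of Mcm5, was 2.10. In bulk RNA, a larger share of cells in cycle and more RNA per cycling cell cannot be told apart, and this holds for all genes given here.

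Likeness was measured as the Pearson correlation, over the 6 samples, with the mean profile of the 9 genes. Among the closest of the other tested genes were Pimreg, Npr3, Bub1b and Cdk2, each with r of 0.999 to 1.000, and 273 genes had r of at least 0.99. The points share the 3-against-3 design, so such values mark mainly a clean step between the groups. Among the 9 genes, r with their mean was 0.986 to 0.999 apart from Cdt1, at 0.898. Each of the 9 was part of that mean, so these values cannot be set beside those of the other genes.

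The labelled cell type was checked by its markers. All 10 osteoblast markers were detected and tested, and 2 were called higher, 2 lower and 6 not called. Of all tested genes 13.2% were called higher and 9.28% lower. Spp1 and Ibsp, which encode bone matrix phosphoproteins, were lower with metformin (-1.5 and -1.60, adjusted p = 0.000471 and 0.000578 by limma), and Col1a1 and Col1a2, the chains of type I collagen, were higher (0.93 and 0.57, adjusted p = 0.0230 and 0.00719), calls kept in 3 and 4 of 6 leave-one-out fits. Runx2, Sp7, Alpl, Bglap, Bglap2 and Sparc were not called, with log2 fold changes from -0.57 for Bglap2 to 0.36 for Sp7. Adipocyte markers summed to 1.76 to 3.18 FPKM in the controls and 2.10 to 2.45 with metformin over 6 genes. Most of this sum was Fabp4, at 2.21 ± 0.67 and 2.06 ± 0.22 FPKM, which was not called, while Cidec was at 0. Endothelial markers summed to at most 0.131 FPKM over 4 genes. The 6 markers of macrophages and osteoclasts summed to 245 to 273 FPKM in the controls and 150 to 163 with metformin. This sum was nearly all Ctsk, which was called lower (-0.74, adjusted p = 0.00205 by limma). Cd68 was also called lower (-0.49, adjusted p = 0.0102), from 2.04 ± 0.096 to 1.17 ± 0.12 FPKM. It had at most 53 reads in a sample. Ptprc and Adgre1 had at most 6 reads, Csf1r at most 8 and Acp5 had 0. The part of these shifts in the licensing values was not tested.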

How the data were processed

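RNA from 6 samples was sequenced by a service provider. The authors deposited 1 table with a normalized value and a length per gene. It names no unit. Multiplied by gene length, 100% of the values above 0 fell on whole steps of a sample's own unit (tolerance 0.01), so the deposited values were taken as FPKM. This check cannot tell FPKM from another scaling by length and a constant per sample. The library size implied by the steps was 0.985 to 1.046 times the sum of the recovered reads. The deposited gene length is in base pairs. The submitters' notes list Bowtie 0.12.2 and builds mm8 and mm9, while 98.1% of the genes have the coordinates of GENCODE M21 (GRCm38), which were used here. No sample column was left unused (0 others).

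The deposited values are normalized, so the main test was made on a log scale, and the recovered reads were used in an alternative (voom). The model of limma 3.58.1 (R 4.3.3) with an intensity trend was fitted to log2(FPKM + 1) over the 12681 genes whose mean FPKM reached 0.5, in all 6 samples and without covariates, with a threshold of 0.05 on the Benjamini-Hochberg adjusted p-value. The study calls the samples biological replicates, but whether they came from separate cultures is not given in the sources used here, so p-values measure the spread between these samples, which may be technical. The members and gene lists were chosen with earlier results of these data known. The text names the 9 members, the 3 largest called changes each way per list and, of the 5 genes most alike by correlation, 4, since 1 is not reported here. Gins4, the genes not called and the untested genes were added after their values were seen. Near-identical transcripts were called at 95% identity over 200 bases (BLAST+ 2.17.0). A floor of 3 reads is at most 1.6e-05% of a sample and covers counting error only.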

Additional observations from a re-analysis of the deposited data

How the results depend on the processing

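Over 14 alternatives, 8 or 9 of the 9 licensing genes were called higher. Of 126 single-gene fits, 122 kept direction and call, 4 lost the call, all of them for Cdt1 and in fits that left out a sample, and 0 turned direction. All 9 genes kept the groups apart under scaling by total reads and under the GC correction. Their median log2 fold change of 1.45 was 1.72 with a pseudocount of 0.1 and 1.73 with voom on the recovered reads, which add less than 1 FPKM to low genes, and 1.44 to 1.5 in the fits that each left out a sample. Same-numbered samples did not deviate together (correlations of -0.053, 0.00027 and -0.055). These values were not corrected for GC content, and they cannot show whether such samples shared a culture or a preparation. With the replicate block all 9 genes were called, as were 698 lower genes in all in place of 1177, and 3 genes of licensing factor turnover in place of 5. With the GC correction 2433 genes were lower and 8 turnover genes were called, and with that and the replicate block 1888 genes were lower. Higher calls were 58.7% of all calls, 45.9% with the GC correction and 47.4% with both. Leaving out each sample gave 938 to 2969 higher and 495 to 2590 lower genes. These fits called 3 to 8 turnover genes, 2 to 4 MCM relatives and 3 to 5 genes of CDK inhibitors and pocket proteins. The most higher genes were called without control replicate 1 and the fewest without metformin replicate 1. The cause was not tested. The control levels of Cdc6 and Gmnn rest on fewer than 100 reads a sample.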

Other observations

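CDK inhibitor genes and the pocket protein genes Rb1, Rbl1 and Rbl2 were examined in a list of 10, of which 7 were tested. Of these, 3 were called higher with metformin, 0 lower and 4 not called, with a median log2 fold change of -0.02. The 4 not called, Cdkn1a (-0.30), Cdkn1b (-0.25), Rbl2 (-0.28) and Rb1 (-0.02), had lower means with metformin. Without control replicate 1, 2 genes were called lower, Cdkn1a and Cdkn1b, and with the GC correction 1, Cdkn1b. Leaving out control replicate 1 put Rbl2 at -0.10 and Rb1 at 0.18, so the lower mean of Rb1 rests on that sample. Rbl1, a pocket protein related to the retinoblastoma protein, went from 3.40 ± 0.80 FPKM (SD, n = 3) in the controls to 11.1 ± 0.22 with metformin, a log2 fold change of 1.48 (adjusted p = 0.000603 by limma). The CDK inhibitors Cdkn2d and Cdkn2c, which act on the kinases of D cyclins, went from 9.91 ± 1.7 to 24.7 ± 2.4 FPKM (1.25, adjusted p = 0.00136) and from 15.8 ± 0.75 to 36.9 ± 3.4 FPKM (1.17, adjusted p = 0.000397). For Rbl1, Cdkn2d and Cdkn2c the metformin samples lay above the controls. Of all tested genes 13.2% were called higher.

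In the promoter windows, the CHR letters TTTGAA and TTCGAA were found in 14 of 18 mitotic genes, 2 of 7 licensing genes and 21.7% of all genes with a window. The E2F letters were found in 1 of 18 mitotic genes, 6 of 7 licensing genes and 2.61% of all genes. These are counts of letters in 300-base windows, set out as a description.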
